A study of Hordeum vulgare with 12 samples.

Results

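Crowns of barley seedlings (Hordeum vulgare, cultivar Golden Promise) were compared 1 h after a synthetic auxin was given and just before it, at 0 h. The comparison used 6 of the 12 libraries of the series, 3 at each of these 2 times, chosen by their labels and not by any measured value. The other 6 libraries, from 30 min and 3 h, entered the same statistical model. The seedlings of all groups had been raised with NPA at 50 µM, which blocks the directed transport of auxin between cells. They spent 3 days in the cold, 3 days germinating and 3 days in nutrient solution, with 16 °C by day and 13 °C by night after the cold. The 0 h crowns were taken from that state. For the 1 h crowns the solution had been replaced by one with 50 µM 1-NAA, the synthetic auxin. Each library came from a pool of 5 crowns, the crown being the 2 mm of tissue that joins roots and stem, and the labels call the 3 libraries of a time independent biological replicates. None of the 12 libraries comes from crowns kept for 1 h without 1-NAA, so effects of 1-NAA, of the end of NPA, of fresh solution and of the hour of day cannot be told apart. In such bulk tissue, more cells of a type and more RNA per cell cannot be told apart either.

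Crown roots are the roots that cereals form from stem tissue. Auxin starts them: it binds receptors of the TIR1/AFB family, which mark Aux/IAA repressor proteins for destruction and so free the auxin response factors that the repressors held. Among the genes these factors switch on are the Aux/IAA genes themselves and genes of the GH3 family, whose enzymes join auxin to amino acids, so that the response limits itself. In rice, the LOB domain gene CRL1 and the homeobox gene WOX11 are needed for normal crown roots. The comparison bears on which of these genes had a changed RNA level after 1 h.

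Counts assigned to genes ranged from 16093892 to 34019480 per library at 0 h and from 21190922 to 27984548 at 1 h. In a principal component analysis of the 6 libraries, the first component (45.8% of the variance) set replicate 3 of both times, at 42.8 and 44.4, apart from the other 4 libraries, which lay between -31.0 and -1.79. The second component (27.4%) separated the times, with 0 h between 3.88 and 46.7 and 1 h between -26.8 and -8.72. The libraries labelled replicate 3 thus stood apart from replicates 1 and 2, and values without them are given below. KNOX and BEL homeobox genes, marks of shoot meristem and stem, summed to between 559 and 599 CPM (the count scaled to a common library size) at 0 h and between 585 and 617 CPM at 1 h, with 24 of 35 expressed well enough to be tested. Phloem genes summed to between 65.1 and 73.2 CPM at 0 h and between 66.8 and 71.2 CPM at 1 h, and grain storage genes to between 92.2 and 108 CPM and between 105 and 115 CPM.

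After 1 h, 24 genes were higher than at 0 h and 0 were lower. They are 0.0963% of the 24920 genes tested (edgeR's quasi-likelihood test, called at a Benjamini-Hochberg adjusted p under 0.05). Among them were 4 Aux/IAA repressors, 2 GH3 genes and a dioxygenase gene of auxin breakdown, 3 homeobox-leucine zipper genes, a WUSCHEL-related homeobox gene, a WRKY, a MYB and a bZIP gene and an ethylene synthesis gene. The rises ran from 1.93-fold to 19.8-fold, and in each of the 24 genes all 3 libraries of 1 h lay above all 3 of 0 h. Such a gap between the groups was found in 7.16% of all tested genes upward and in 6.4% downward. The 24 genes were called on these same libraries, so their gap is not separate support. The other 9 called genes belong to kinase, F-box, glycosyltransferase and further families. Over all tested genes the log2 fold change was above 0 in 49.5%, a share that the scaling of the libraries sets near the middle.

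The count depended on the test and on single libraries. At an unadjusted p under 0.05 there were 947 higher (3.8%) and 485 lower (1.95%) genes, where 1246 of either direction would be found with no change. DESeq2, a second tool, called 105 genes higher (0.467%) and 16 lower (0.0712%), and the 24 were among them. With a replicate block, a term for the replicate number in the model, edgeR called 62 higher (0.249%) and 4 lower (0.0161%). The 24 were among these too. Values of edgeR below are from the fit without the block unless the block is named. The authors' deposited table lists 101 genes higher (0.419%) and 14 lower (0.058%) in this comparison at an adjusted p under 0.05. The 24 are among the 101. The table's values come from the same libraries and, for named genes that both call, lie close to those of DESeq2, so it is not separate support. Leaving out 1 library at a time lowered edgeR's count whenever a library of 0 h or 1 h was dropped. The count fell to 5, 6 and 5 for the 0 h libraries in replicate order and to 3, 14 and 3 for those of 1 h. Dropping replicate 2 of 3 h gave 9. The GH3.3 gene, the WRKY gene and the homeobox-leucine zipper gene described first below passed in all 12 of these fits. No called gene changed direction in any of them. Dropping 1 library could hardly turn a direction, since in all 24 the libraries of 1 h lay above those of 0 h. Without the 4 libraries labelled replicate 3, the count was 12, of which 2 were among the 24 (gene identifiers are given without their shared prefix HORVU.MOREX.r2., and without the transcript suffix): the GH3.3 gene 2HG0106420 and the ACC oxidase gene 1HG0017380.

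**Figure D1:**
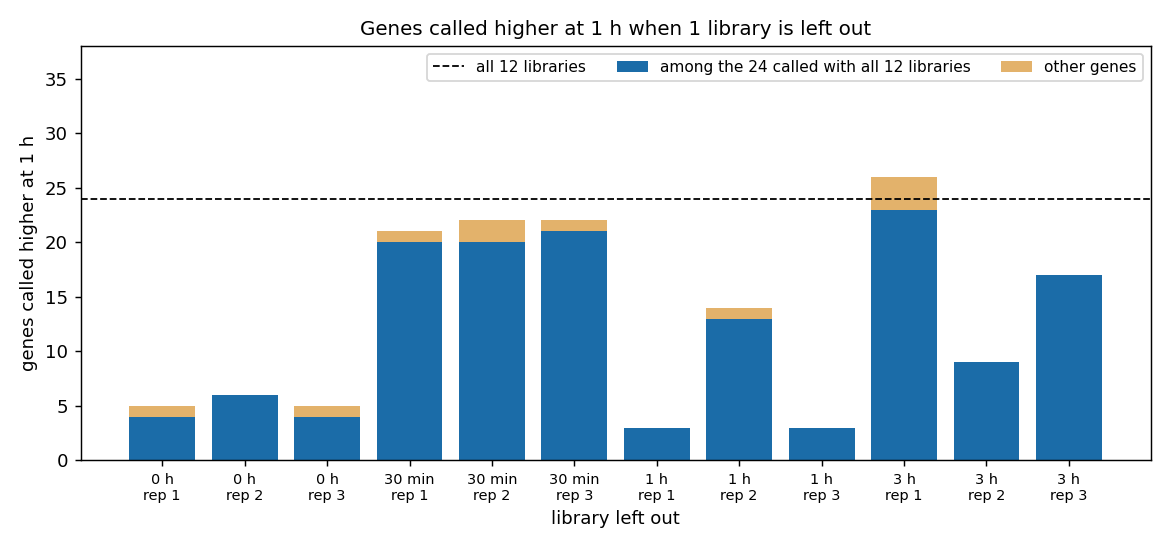
Number of genes called higher at 1 h against 0 h (edgeR, adjusted p under 0.05) when the library named on the x axis is left out, with the genes among the 24 in blue, other genes in tan and a dashed line at the count with all 12 libraries. The count is lowest, at 3, without replicate 1 or 3 of 1 h and highest, at 26, without replicate 1 of 3 h.

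Genes of auxin inactivation included the clearest rise. The GH3.3 gene 2HG0106420 (on chromosome 2H from 121197894 to 121199873, plus strand; positions are those in the deposited files), whose first listed Arabidopsis homolog is GH3.1, had 9.08, 9.48 and 9.82 CPM in the libraries of 0 h and 161, 86.4 and 139 CPM in those of 1 h. The lowest library of 1 h lay far above the highest of 0 h, and the 3 libraries of 0 h were nearly equal. It rose by a log2 fold change of 3.77 ± 0.248 (SE, n = 3 and 3, edgeR adjusted p = 0.000131), the smallest p of all genes. A second GH3.3 gene, 3HG0242100 (3H, 505959452 to 505963259), went from 3.48, 2.86 and 4.73 CPM to 30.5, 20.0 and 22.1 CPM, a rise of 2.7 ± 0.396 (adjusted p = 0.03). The 2-oxoglutarate-dependent dioxygenase gene 2HG0144850 (2H, 534360114 to 534361199) has as its first rice homolog DAO, which in rice oxidises auxin to an inactive form. It had 6.76, 11.8 and 13.4 CPM at 0 h and 38.4, 32.5 and 40.5 CPM at 1 h, which was 1.79 ± 0.254 higher on the log2 scale (adjusted p = 0.0291). Genes for both conjugation and oxidation of auxin were therefore among the called genes.

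The other 7 tested GH3 genes did not pass. The nearest was 1HG0054200, similar to Arabidopsis GH3.6, at 13.5, 34.7 and 27.6 CPM at 0 h and 84.1, 77.4 and 58.6 CPM at 1 h (log2 difference 1.53 ± 0.491, adjusted p = 0.665). Its groups did not overlap, but the libraries of 0 h differed among themselves. The gene 3HG0205050, similar to Arabidopsis JAR1, which conjugates jasmonate and not auxin, stood at a difference of 0.16 ± 0.314. When any single library of 0 h or 1 h was dropped, 1 of the 3 calls was left, that of the GH3.3 gene on 2H. Dropping replicate 2 of 3 h left 1 and dropping replicate 3 of 3 h left 2, and the lost calls had adjusted p from 0.0537 to 0.242.

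**Figure D2:**
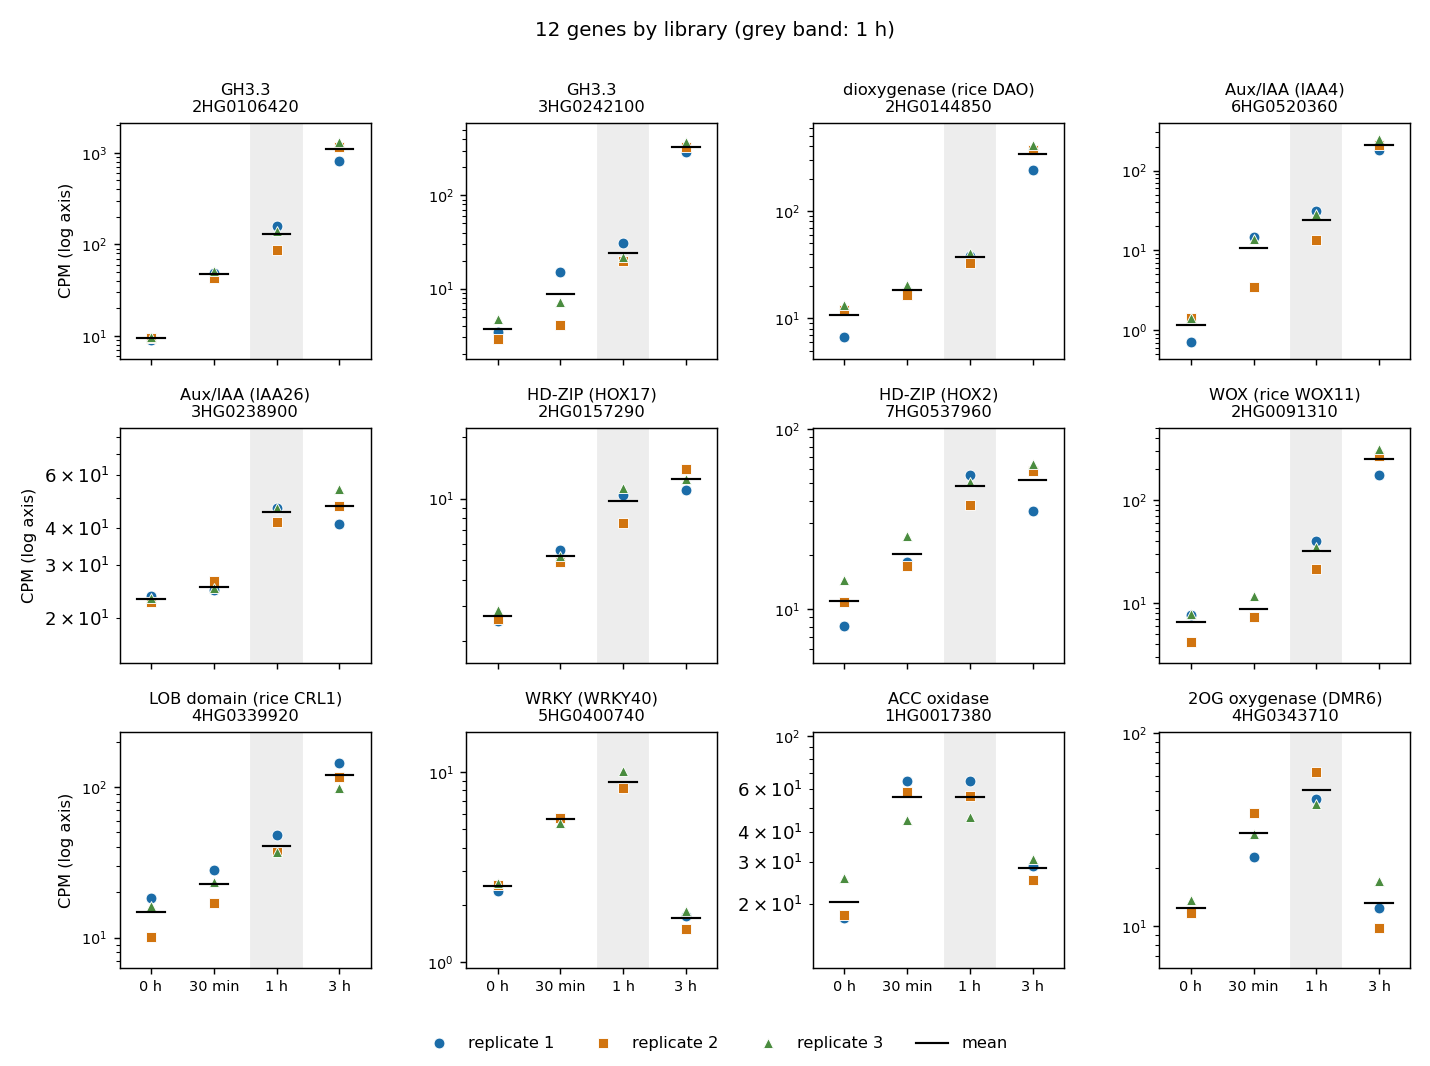
Level in CPM on a log axis for 12 genes in the 12 libraries, by time, with a symbol for each replicate number, a black bar at the mean and a grey band over 1 h. The GH3.3, dioxygenase, WOX11-like and CRL1-like genes stand higher again at 3 h, while the WRKY, ACC oxidase and DMR6-like genes stand lower at 3 h than at 1 h.

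Aux/IAA genes, which encode the repressors of the auxin response, were the family with the most called members. Of 21 listed genes 18 were tested and 4 were called, beside 0.0963% of all tested genes. In 17 the log2 fold change was above 0, with a family median of 0.64 against a median of -0.0035 over all tested genes. In 10 of the 18 genes (55.6%) the 3 libraries of 1 h lay above the 3 of 0 h, beside 7.16% of all genes. An IAA4-like gene, 6HG0520360 (6H, 556882099 to 556882739), had 0.708, 1.41 and 1.41 CPM at 0 h and 30.7, 13.7 and 28.4 CPM at 1 h. It was low at 0 h and higher in every library of 1 h, a rise of 4.30 ± 0.531 (edgeR adjusted p = 0.0161), which was the largest fold among the 24.

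The other 3 called Aux/IAA genes were already well expressed at 0 h. 3HG0238900 (3H, 485151943 to 485154139), similar to IAA26, had 23.8, 22.7 and 23.3 CPM before and 46.4, 41.9 and 46.6 CPM after, which is the smallest fold among the 24 and one of the most even between replicates (0.95 ± 0.12, adjusted p = 0.0161). The 2 genes similar to IAA17 had like values: 3HG0199050 went from 16.3, 21.1 and 22.1 CPM to 70.2, 48.5 and 56.5 CPM (1.55 ± 0.236, adjusted p = 0.0356). 1HG0021490 went from 19.8, 20.5 and 28.8 CPM to 78.7, 55.7 and 90.0 CPM (1.70 ± 0.267, adjusted p = 0.0445). In each of the 4 genes replicate 2 was the lowest library of 1 h.

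At the other end of the family, some Aux/IAA genes differed by less than their spread. 3HG0206810, whose first rice homolog is IAA3, had 334, 410 and 361 CPM at 0 h and 351, 403 and 352 CPM at 1 h (log2 difference 0.00 ± 0.142). 7HG0544360, whose first rice homolog is IAA20, was the single tested member below 0, at 3.28, 5.25 and 6.25 CPM and then 3.35, 2.82 and 7.35 CPM (-0.14 ± 0.46), and it rose between 1 h and 3 h by 3.33 (adjusted p = 0.00422). Dropping any single library of 0 h, or replicate 1 or replicate 3 of 1 h, left 0 of the 4 calls. Dropping replicate 2 of 1 h or of 3 h left 2, dropping a library of 30 min left 2 or 3, and dropping replicate 3 of 3 h left 3. The lost calls had adjusted p from 0.0547 to 0.304.

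The other auxin families had no member called by edgeR without the replicate block. SAUR genes, short early auxin-response genes linked to cell expansion, had 26 of 45 members above 0 and a median of 0.23. Of the 45, 8 were higher and 2 lower at an unadjusted p under 0.05, beside 3.8% and 1.95% of all genes. DESeq2 called 2. The nearest to a call was 5HG0417400, which was low, at 0.193, 0.228 and 0.368 CPM before and 1.63, 0.805 and 1.39 CPM after (2.19 ± 0.412, adjusted p = 0.15; DESeq2 0.00342). 5HG0417410, similar to SAUR66, had 2.38, 2.32 and 2.29 CPM at 0 h and 6.09, 6.26 and 4.13 CPM at 1 h (1.23 ± 0.308, adjusted p = 0.452; DESeq2 0.0432). Among 29 auxin response factors, the DNA-binding proteins of the pathway, the median was 0.09. The nearest to a call was 2HG0140540 at 51.6, 51.2 and 59.6 CPM before and 83.8, 83.5 and 77.7 CPM after (0.59 ± 0.127, adjusted p = 0.256), and DESeq2 called it (adjusted p = 0.00337). The 8 tested TIR1/AFB receptor genes had a median of 0.07 and no member past an unadjusted p of 0.05. Auxin transport genes (20 tested) had a median of 0.13 with 2 members past that unadjusted p and none called by DESeq2. The auxin efflux carrier gene 6HG0510400 had 39.3, 44.1 and 45.1 CPM and then 59.8, 50.8 and 79.8 CPM (0.57, adjusted p = 0.677). Among the auxin families, calls at 1 h without the block were thus in the repressors and the inactivating enzymes. With the block edgeR also called the SAUR gene 5HG0417400 (adjusted p = 0.0481). It called the auxin response factor gene 2HG0150790 as well (adjusted p = 0.0413, against 0.647 without the block).

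Homeobox-leucine zipper genes gave 3 of the 7 called transcription factor genes. 2HG0157290 (2H, 606023327 to 606024354), whose first rice homolog is HOX17, had 2.51, 2.59 and 2.86 CPM at 0 h and 10.5, 7.58 and 11.3 CPM at 1 h, a rise of 1.88 ± 0.188 (edgeR adjusted p = 0.0041). The values within each time were close together. On chromosome 7H, 7HG0537950 (23510016 to 23511104), similar to Arabidopsis HAT1, rose from 4.57, 5.52 and 5.66 CPM to 18.9, 11.4 and 13.6 CPM (1.47 ± 0.188, adjusted p = 0.0161). Its neighbour 7HG0537960, which starts 15.3 kb further on and whose first rice homolog is HOX2, rose from 8.05, 10.9 and 14.5 CPM to 55.5, 38 and 50.6 CPM (2.1 ± 0.279, adjusted p = 0.0199). HAT1 and HAT3 belong to the second class of this family, known in Arabidopsis for growth responses to shade and auxin.

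Of the 22 tested members, 14 were above 0. The median was 0.07, and dropping a single library moved it between 0.01 (replicate 1 of 1 h) and 0.48 (replicate 2 of 0 h). The gene 1HG0045880, similar to HAT3, was higher in every library of 1 h, at 12.6, 25.5 and 29.2 CPM before and 64.4, 69.2 and 88.6 CPM after (1.72 ± 0.328, adjusted p = 0.15), and DESeq2 called it (adjusted p = 0.000208). Members of another branch, similar to PROTODERMAL FACTOR 2 and HDG genes of the epidermis, stayed within the spread: 2HG0164630 had 21.8, 30.7 and 17.9 CPM and then 30.8, 36.1 and 18.7 CPM. Dropping any single library of 0 h, or replicate 1 or replicate 3 of 1 h, left 1 of the 3 calls, and dropping replicate 2 of 3 h left 2. The calls lost had adjusted p from 0.0510 to 0.151. How reads that fit more than 1 gene were counted is not given in the sources used here, so the neighbours on 7H may share some.

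Among genes tied to crown roots in rice, a WOX11 homolog rose. 2HG0091310 (2H, 32750309 to 32752599), a WUSCHEL-related homeobox gene whose first listed rice homolog is WOX11, had 7.72, 4.19 and 7.75 CPM at 0 h and 40.3, 21.7 and 34.8 CPM at 1 h, a rise of 2.3 ± 0.329 (edgeR adjusted p = 0.0292). Replicate 2 was the lowest library at both times. The gene 4HG0315980, for which WOX11 is listed second, was low, with 0.644, 0.495 and 0.934 CPM and then 2.84, 1.35 and 3.42 CPM (1.85 ± 0.353, adjusted p = 0.15), and DESeq2 called it (adjusted p = 0.00169). The LOB domain gene 4HG0339920 (4H, 595307482 to 595308336), the first homolog of rice CRL1 and similar to Arabidopsis LBD29, had 18.3, 10.1 and 16.2 CPM before and 48.1, 36.9 and 37.2 CPM after. Its groups were well apart, yet without a replicate block it did not pass (1.46 ± 0.249, adjusted p = 0.0808). DESeq2 called it (adjusted p = 3.18e-05), and between 1 h and 3 h it rose by a further 1.56 (edgeR adjusted p = 0.00684).

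Rice CRL4 encodes a GNOM-type exchange factor that sorts auxin carriers, and its first homolog 4HG0278080 had 35.6, 42.6 and 44.9 CPM and then 42.4, 44.1 and 39.6 CPM (0.03 ± 0.162). The authors' deposited table lists no first homolog for CRL5 or WOX5. In the whole LOB domain family 14 of 22 members were above 0, with a median of 0.17. None was called by edgeR without a replicate block, and DESeq2 called 1. At an unadjusted p under 0.05, 4 were higher, beside 3.8% of all genes. In the WUSCHEL-related family 5 of 8 were above 0, with a median of 0.40 and 2 calls by DESeq2. AP2-like and PLETHORA genes, which act in root meristems in Arabidopsis, ranged from -0.72 to 0.44 with a median of 0.04 in 21 genes. None of the 21 passed by edgeR or DESeq2, and none had an unadjusted p under 0.05. The WOX11-like gene lost its call in 6 of the 12 fits that drop a library: any of 0 h, replicate 1 or replicate 3 of 1 h and replicate 2 of 3 h, at adjusted p up to 0.154.

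Outside the homeobox families, a WRKY, a MYB and a bZIP gene rose. 5HG0400740 (5H, 452770168 to 452771471), similar to Arabidopsis WRKY40, a regulator of defence and abscisic acid responses, had 2.38, 2.55 and 2.6 CPM at 0 h and 8.28, 8.27 and 10.1 CPM at 1 h. Its replicates differed little, and it rose by 1.82 ± 0.174 (edgeR adjusted p = 0.00378). The neighbouring gene 5HG0400750, 5.75 kb away and also similar to WRKY40, had 16.6, 17.7 and 10.4 CPM before and 49.9, 37.4 and 34.2 CPM after (1.45 ± 0.28, adjusted p = 0.155). The MYB gene 2HG0090570 (2H, 30591917 to 30592942) rose from 1.42, 0.914 and 1.16 CPM to 7.07, 5.49 and 8.80 CPM (2.63 ± 0.399, adjusted p = 0.0356). The bZIP gene 7HG0557340 (7H, 120436348 to 120436932), similar to Arabidopsis BZIP42, rose from 0.901, 2.13 and 0.566 CPM to 9.91, 5.60 and 8.73 CPM (2.75 ± 0.418, adjusted p = 0.0356). Both were weakly expressed at 0 h, near 1 CPM.

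Some transcription factor genes fell just short. The MYB gene 4HG0316960 had 1.16, 1.52 and 2.43 CPM before and 8.61, 8.89 and 12.4 CPM after (2.51 ± 0.411, adjusted p = 0.0612). The NAC gene 5HG0410120 had 6.50, 5.67 and 5.18 CPM and then 13.5, 13.8 and 12.3 CPM (1.2 ± 0.198, adjusted p = 0.0662). The bHLH gene 2HG0131040 had the largest difference of these, 5.04 ± 1.00, from 2.00, 0.457 and 3.71 CPM to 27.0, 140 and 39.8 CPM (adjusted p = 0.179). Its 1 h libraries spread widely, with replicate 2 the highest. Each of these 3 was called by DESeq2. With the replicate block edgeR called them too, at adjusted p of 0.00232, 0.0323 and 0.0273 in the order given.

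In all, 852 genes in 19 transcription factor lists were tested. Of these, 7 genes in 5 lists were called, beside 24 of all 24920 tested genes (0.0963%). The bZIP, MYB and WRKY calls were single members of families of 41, 154 and 85 genes. WRKY genes had 62 of 85 members above 0 and a median of 0.22, MYB genes a median of 0.06 and bZIP genes a median of 0.01. Ethylene response factors (77 genes, median 0.14), bHLH genes (137, median 0.08), NAC genes (88, median 0.15), GRAS genes (38, median 0.05) and MADS-box genes (34, median -0.09) had 0 calls by edgeR without the replicate block. With the block it called the bHLH and NAC genes described above. Of the 4 WRKY, MYB, bZIP and WUSCHEL-related calls, 1 or 2 were left when a library of 0 h or 1 h, or replicate 2 or replicate 3 of 3 h, was dropped, and 2 or 3 when one of 30 min was dropped. The calls lost had adjusted p from 0.0559 to 0.278, and the WRKY gene was the one kept throughout.

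Among hormone enzymes, 1 gene passed without the replicate block, in ethylene synthesis. The ACC oxidase gene 1HG0017380 (1H, 78723318 to 78724244), for the last step of ethylene synthesis, had 17.4, 18.0 and 25.7 CPM at 0 h and 64.8, 56.0 and 45.9 CPM at 1 h (1.44 ± 0.2, edgeR adjusted p = 0.0244). It stood as high at 30 min, at 64.7, 58.5 and 44.7 CPM, and fell between 1 h and 3 h by 0.98 (adjusted p = 0.0255). A second ACC oxidase gene 119 kb away, 1HG0017390, had 11.8, 7.35 and 14.2 CPM and then 33.2, 22.5 and 21.4 CPM (1.21 ± 0.302, adjusted p = 0.452). DESeq2 called it (adjusted p = 0.0375), and reads of the 2 genes may not be fully separated. The ACC synthase gene 4HG0282950, for the step that limits ethylene synthesis in many plants, was still low at 1 h, with 0.129, 0.228 and 0.934 CPM before and 1.81, 1.28 and 0.542 CPM after. It then reached 33.6, 33.3 and 34.2 CPM at 3 h (3 h minus 1 h 4.82, adjusted p = 0.000986). Of 12 tested ethylene synthesis genes 11 were above 0, with a median of 0.43. The ACC oxidase call was lost in 6 of the 12 fits, those that drop replicate 1 or replicate 2 of 0 h, any library of 1 h or replicate 2 of 3 h, at adjusted p from 0.0521 to 0.166.

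Enzymes of the other hormones had 0 calls at 1 h by edgeR without the replicate block. Gibberellin oxidases, which make or remove active gibberellins, had a median of 1.06, with 10 of 13 above 0. Of the 13, 6 were higher at an unadjusted p under 0.05, beside 3.8% of all genes, and DESeq2 called 1. The gibberellin 20-oxidase gene 5HG0446540 had 3.09, 3.77 and 6.54 CPM and then 9.54, 14.5 and 13.1 CPM (1.46 ± 0.375, adjusted p = 0.492). With the replicate block edgeR called it (adjusted p = 0.0465). The gibberellin 2-oxidase gene 3HG0240680, of the inactivating branch, had 21.8, 10.8 and 12.8 CPM and then 27.3, 50.5 and 24.8 CPM (1.18 ± 0.335, adjusted p = 0.571). The median moved between 0.57 and 1.25 when 1 library was left out.

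Cytokinin activation enzymes of the LOG type, which release active cytokinins, had 10 of 11 members above 0 and a median of 0.28. At 1 h 2 of them were higher at an unadjusted p under 0.05, beside 3.8% of all genes. Neither edgeR nor DESeq2 called one. 1HG0033760 had 7.02, 9.14 and 9.56 CPM and then 23.3, 23.4 and 12.8 CPM (1.2 ± 0.347, adjusted p = 0.59). Between 1 h and 3 h, 4 of the 11 rose, beside 1.19% of all genes. The steepest, 4HG0339680, stood at 9.77, 3.73 and 2.00 CPM at 1 h and 100.2, 74.3 and 122 CPM at 3 h. The cytokinin oxidase gene 3HG0265950, whose enzyme breaks cytokinins down, had 6.11, 7.77 and 14.3 CPM at 0 h and 33.6, 28.2 and 44.5 CPM at 1 h (1.90 ± 0.365, adjusted p = 0.154). DESeq2 called it, and so did edgeR with the replicate block (edgeR adjusted p = 0.00239).

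JAZ genes, the repressors of jasmonate signalling, had 13 of 15 members above 0 and a median of 0.72. Of the 15, 5 were higher at an unadjusted p under 0.05, beside 3.8% of all genes. Against 0 h the family's median was 2.58 at 30 min and -0.46 at 3 h, with 0 members called by edgeR at either time. 5HG0398310 had 5.47, 3.27 and 12 CPM at 0 h and 34.1, 81.1 and 58.1 CPM at 1 h (3.04 ± 0.568, adjusted p = 0.145). Between 1 h and 3 h it fell by 2.90 (adjusted p = 0.0217). DESeq2 called it and 2HG0103320 at 1 h, and edgeR with the replicate block called 5HG0398310 (edgeR adjusted p = 0.0149). The family's median rested in part on single libraries, with 0.44 as its lowest and 1.64 as its highest value when 1 library was left out. Jasmonate synthesis enzymes (32 tested) had a median of 0.30 and no call by edgeR or DESeq2. Of these enzymes 5 were higher at an unadjusted p under 0.05, beside 3.8% of all genes.

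The other 9 called genes had mixed roles. The kinase gene 5HG0445920, similar to the Arabidopsis cysteine-rich receptor-like kinase CRK10, had 16.7, 16.2 and 16.5 CPM at 0 h and 39.6, 48.7 and 38.4 CPM at 1 h (1.36 ± 0.171, edgeR adjusted p = 0.0161). The oxygenase gene 4HG0343710, similar to Arabidopsis DMR6, which limits salicylic acid and disease resistance, went from 11.8, 11.7 and 13.7 CPM to 45.4, 63.0 and 43 CPM (2.02 ± 0.249, adjusted p = 0.0161). The glycosyltransferase gene 7HG0550420, of a family that attaches sugars to hormones and other small molecules, went from 2.64, 3.46 and 3.17 CPM to 9.21, 7.94 and 8.40 CPM (1.45 ± 0.168, adjusted p = 0.013). For each of these the 0 h libraries were nearly equal.

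F-box proteins choose the targets of ubiquitin ligases, and 2 such genes rose. 3HG0246100 had 17.7, 14.1 and 13.4 CPM before and 35.5, 31.9 and 44.4 CPM after (1.31 ± 0.174, edgeR adjusted p = 0.0199). 4HG0316440 had 19.6, 14.7 and 14.7 CPM before and 35.9, 32.6 and 33.0 CPM after (1.06 ± 0.142, adjusted p = 0.0202). The BTB/TAZ gene 3HG0257260, similar to Arabidopsis BT2, rose from 2.38, 2.06 and 1.73 CPM to 6.93, 5.09 and 5.79 CPM (1.54 ± 0.242, adjusted p = 0.0445). Its neighbour 3HG0257280 stood 1.94 ± 0.338 above 0 h (adjusted p = 0.0888). The remaining 3 were a DnaJ-domain gene, 7HG0609890 (1.83 ± 0.267, adjusted p = 0.03), and 2 genes whose descriptions name bacterial proteins, 4HG0285770 (described as sigma factor SigA, 1.81 ± 0.266) and 2HG0088620 (described as a D-ribose-binding protein, 2.39 ± 0.352), both with an adjusted p of 0.03. For these last 2 the description gives no role in plants that is sure. Of the 9 calls, 0 to 2 were left when a library of 0 h was dropped, 0 without replicate 1 or replicate 3 of 1 h, 5 without its replicate 2, and 3 and 6 without replicate 2 and replicate 3 of 3 h. The lost calls had adjusted p from 0.0521 to 0.262.

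Without the replicate block no gene passed edgeR's test as lower at 1 h, and the smallest adjusted p among lower genes was 0.0718. It belonged to 6HG0460170 (6H, 37072316 to 37073116), a chlorophyll a-b binding gene of the light-harvesting complex, at 3.93, 2.74 and 2.63 CPM before and 0.512, 0.403 and 0.677 CPM after (-2.52 ± 0.424). The clock gene 7HG0622940, similar to Arabidopsis REVEILLE 2, had 34.5, 25.1 and 28.4 CPM and then 15.5, 10.6 and 10.3 CPM (-1.27 ± 0.256, adjusted p = 0.191). It fell between 1 h and 3 h by 1.84 (adjusted p = 0.0044), to 2.85, 3.53 and 3.75 CPM. Its libraries did not overlap between 0 h and 1 h or between 1 h and 3 h. The gene 3HG0197790, similar to the clock gene GIGANTEA, was higher in every library of 1 h, with 69.6, 66.1 and 76.6 CPM and then 91.2, 111 and 110 CPM (0.56, adjusted p = 0.652). Time of day and auxin cannot be told apart in these values, since both differ between the groups. A transcription factor gene whose first rice homolog is HY5, 6HG0479210, had 36.0, 17.5 and 16.8 CPM and then 8.42, 9.26 and 11.1 CPM (-1.28 ± 0.309, adjusted p = 0.431). DESeq2 called the chlorophyll-binding, REVEILLE-like and HY5-like genes lower. With the replicate block edgeR called 4 genes lower (0.0161% of those tested). Among them were the chlorophyll-binding gene (adjusted p = 0.0323) and the REVEILLE-like gene (0.0276).

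Of the 50 gene lists with a tested member, 41 had no called gene at 1 h by edgeR without the replicate block, which called 0.0963% of all tested genes. DESeq2 made 26 higher and 2 lower calls in 18 of these lists, beside 0.467% higher and 0.0712% lower over all its genes. The lists differ in size, so the 26 and 2 alone do not show more or fewer calls than over all genes. Cyclin and CDK genes, which drive the cell cycle, had a median of 0.01 in 65 genes, with none past an unadjusted p of 0.05. Expansins and xyloglucan enzymes, which loosen walls, had a median of -0.05 in 77 genes. Of the 77, 5 were higher and 1 lower at an unadjusted p under 0.05, beside 3.8% and 1.95% of all genes. Dropping a single library moved that median between -0.25 (replicate 3 of 1 h) and 0.34 (replicate 3 of 0 h), so its sign was not stable. Pectin enzymes had a median of -0.03 in 68 genes. Cellulose synthases had a median of 0.15 in 36 genes and aquaporins one of 0.06 in 29. The wall gene nearest to a call was the xyloglucan endotransglucosylase gene 7HG0604490, at 78.0, 96.2 and 110 CPM and then 219, 288 and 158 CPM (1.23 ± 0.274, adjusted p = 0.326), which DESeq2 called. No gene of cell division or of these wall lists passed edgeR's test at 1 h.

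**Figure D3:**
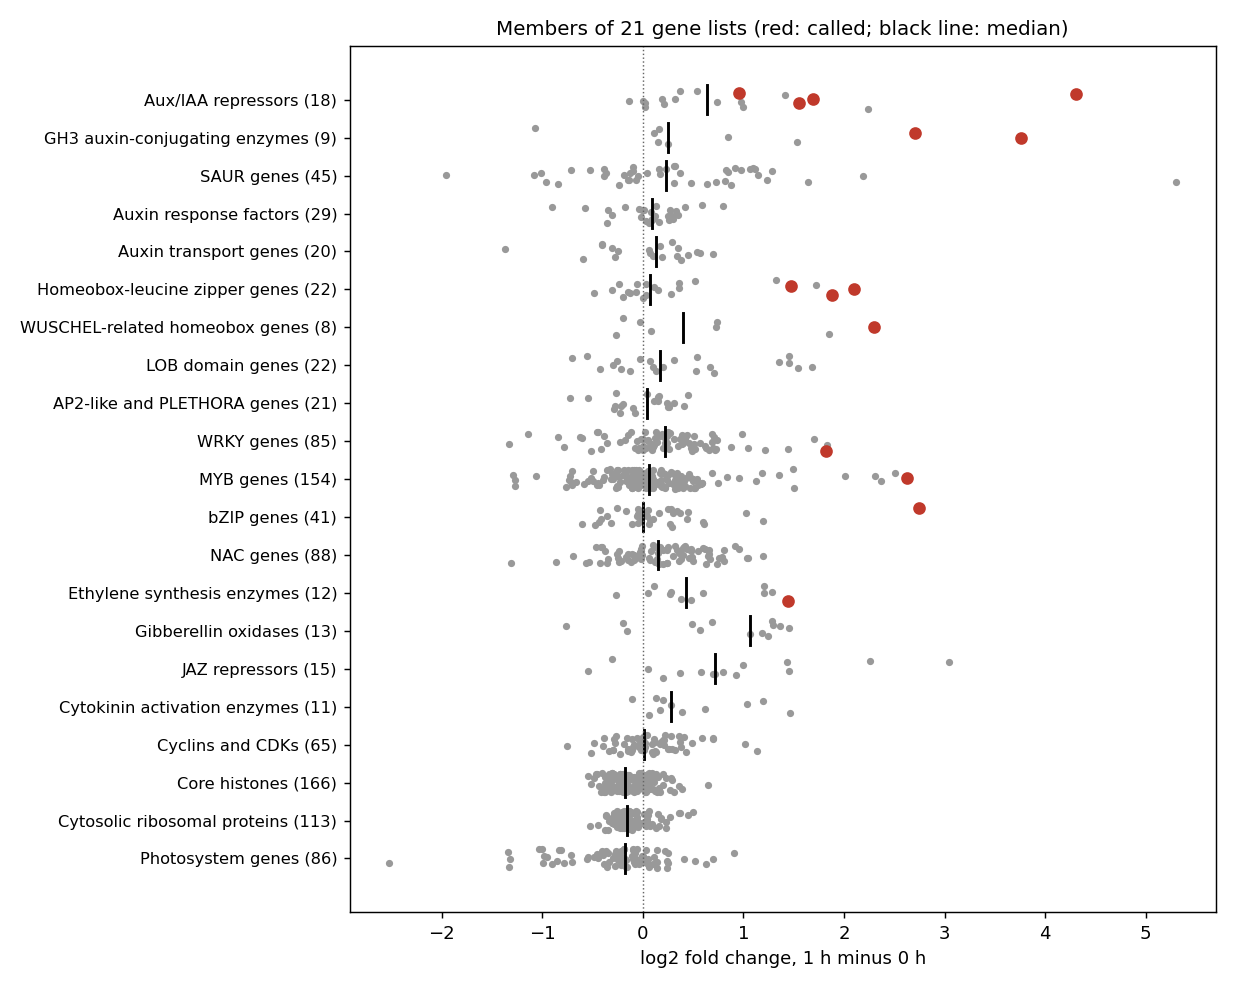
Log2 fold change of 1 h against 0 h for each tested member of 21 gene lists, with the number of members in brackets, called members in red and a black line at each list's median. Called members appear in 8 of the lists drawn, all to the right of 0, and the core histone, ribosomal protein and photosystem lists have medians between -0.18 and -0.16.

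Of the 41 lists, 30 had at least 1 called gene between 1 h and 3 h and 11 had none in either comparison. Between 1 h and 3 h 297 genes rose (1.19% of those tested) and 221 fell (0.887%). Of the families that had 0 calls at 1 h, LOB domain genes then had 4 higher, auxin transport genes 4 higher, auxin response factors 3 higher, SAUR genes 3 higher and 1 lower and cyclins and CDKs 2 higher. Gibberellin oxidases had 3 higher and 1 lower. The 11 lists with none in either were auxin synthesis, AP2-like and PLETHORA, C2H2 zinc finger, MADS-box, TCP and heat stress factor genes, abscisic acid enzymes, core histones, ribosomal proteins, ABC transporters and grain storage genes.

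Several large lists had medians below 0 at 1 h, with no member called by edgeR without the replicate block. Ribosomal protein genes had 21 of 113 members above 0 and a median of -0.16, and in 23 of them (20.4%) all libraries of 1 h lay below all of 0 h, beside 6.4% of all genes. Their summed level was 63825, 68007 and 57622 CPM at 0 h and 55840, 59397 and 52376 CPM at 1 h, so the sums overlapped. Core histone genes had 38 of 166 above 0 and a median of -0.17, and in 2 of them (1.2%) all libraries of 1 h lay below all of 0 h. Dropping replicate 2 of 0 h gave a median of -0.06, and dropping replicate 3 of that time gave -0.30. The histone genes had sums of 33732, 35562 and 25627 CPM and then 30350, 31162 and 23753 CPM. Photosystem genes, marks of green tissue, had 21 of 86 above 0 and a median of -0.18, and in 17 of them (19.8%) the 1 h libraries lay below those of 0 h. Their sums were 8416, 6338 and 7501 CPM at 0 h and 6863, 5630 and 6394 CPM at 1 h, and 71 of the 196 listed genes had no read in the 6 libraries. Members of such a list move together in a library, so these counts are not independent, and the part of green tissue in the pools was not tested.

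Heat shock genes differed between the replicates of 1 h. Without the 4 libraries labelled replicate 3, 10 genes passed that had not passed with all 12, at adjusted p from 0.00257 to 0.0338 in place of 0.553 to 0.701. With all 12 libraries DESeq2 called 7 genes of the heat shock and chaperone list and 1 heat stress factor higher, and 5 of the 10 were among its calls. Of these 10, 6 stand in the heat shock protein or heat stress factor lists, and the other 4 are 3 genes described as putative heat-shock proteins and a peptidylprolyl isomerase, a protein-folding enzyme. The heat stress factor gene 5HG0423600, whose first rice homolog is the factor A-2b, had 1.09, 1.14 and 0.99 CPM at 0 h and 22.1, 24.6 and 1.76 CPM at 1 h. The class II small heat shock protein gene 3HG0197340 had 0.451, 0.190 and 1.58 CPM at 0 h and 30.7, 48.2 and 1.52 CPM at 1 h. In both, replicates 1 and 2 of 1 h were far above every library of 0 h and replicate 3 was not, and DESeq2 called both (adjusted p = 0.0376 and 0.0489). The 10 genes were chosen by leaving out replicate 3, so a low replicate 3 follows from the choice and the next values only describe them. Over the 10 genes the median ratio to the mean of 0 h was 15.2, 18.9 and 1.65 in replicates 1, 2 and 3 of 1 h. It was 22.5, 24.6 and 2.11 at 30 min and 3.29, 3.94 and 0.960 at 3 h. At 0 h replicate 3 was the highest library in most of the 10 genes, though not in 5HG0423600, and so raised the mean of 0 h. The gene 3HG0197300, for instance, had 0.901, 0.952 and 6.82 CPM at 0 h. In the whole list of 223 heat shock and chaperone genes, 24, 23 and 6 stood at or above 2 times their 0 h mean in the 3 libraries of 1 h (10.8%, 10.3% and 2.69%), beside 3.05%, 3.31% and 3.49% of all tested genes. The labels name no treatment that sets replicate 3 apart, and the cause was not tested.

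**Figure D4:**
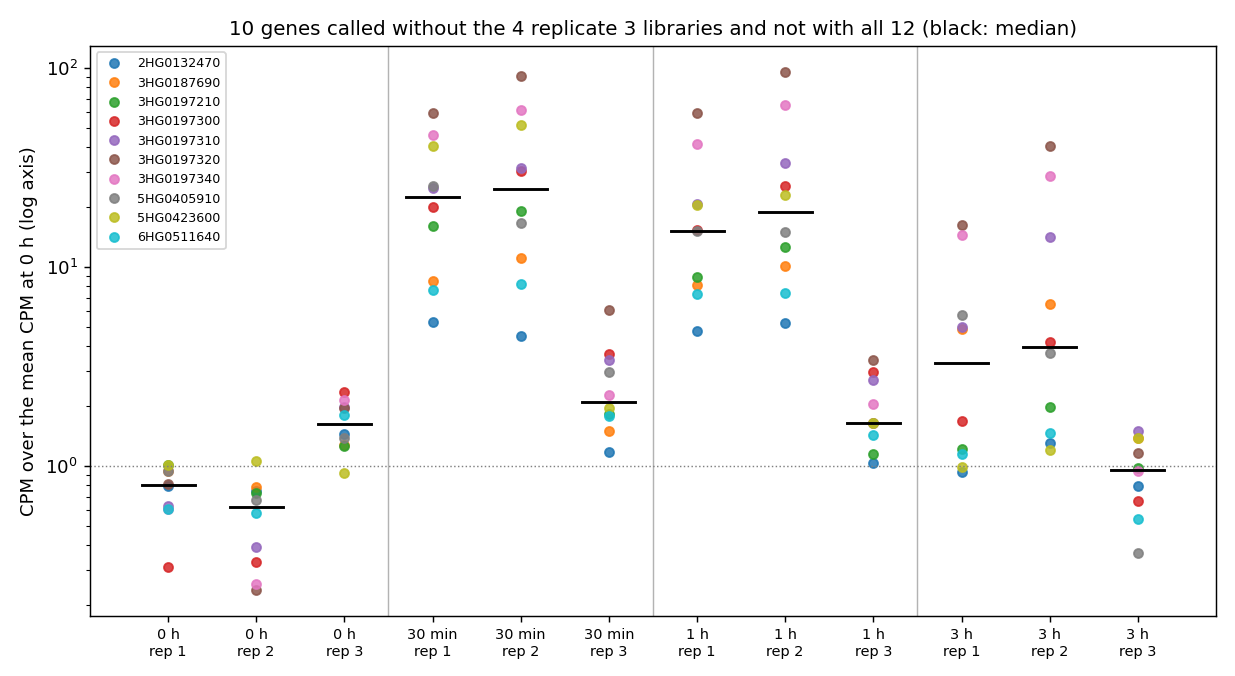
Level of 10 genes in each library as a ratio to their mean CPM at 0 h, on a log axis, for the genes that were called at 1 h without the 4 replicate 3 libraries and not with all 12, with a black bar at the median of the 10. At 30 min and 1 h replicates 1 and 2 lie about 1 order of magnitude above the 0 h level and replicate 3 lies close to it.

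The neighbouring times place these values in the course of the response. Against 30 min, 0 genes passed by edgeR at 1 h (smallest adjusted p = 0.495). At an unadjusted p under 0.05 there were 340 higher and 396 lower, fewer than the 1246 of either direction with no change. DESeq2 called 15 higher and 8 lower, so the 0 does not show that no gene differed. Of the 24 genes, 23 stood higher at 1 h than at 30 min, by a median of 0.89 on the log2 scale, and none of these differences passed the test. Against 3 h, 15 of the 24 rose further, 4 fell and 5 did not pass. The comparisons of 1 h with 0 h and of 3 h with 1 h share the libraries of 1 h, so a value of 1 h that is high by chance lowers the second difference.

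The genes that rose further were led by those of auxin inactivation. The GH3.3 gene on 2H reached 825, 1173 and 1322 CPM at 3 h, a further 3.10 on the log2 scale (edgeR adjusted p = 0.000118), and the GH3.3 gene on 3H a further 3.78 (adjusted p = 0.000979). The DAO-like gene rose by 3.21, the IAA4-like gene by 3.12 and the WOX11-like gene by 2.97. The WRKY40-like gene was back at 1.75, 1.5 and 1.86 CPM at 3 h, after a fall of 2.38 from 1 h (adjusted p = 0.000118). These values lie below those of 0 h, but edgeR did not call the gene lower at 3 h than at 0 h. The DMR6-like gene fell by 1.95, the ACC oxidase gene by 0.98 and the CRK10-like kinase gene by 0.81. Among the 5 that passed in neither direction were the 3 homeobox-leucine zipper genes and the IAA26-like gene, whose differences from 1 h to 3 h were 0.35, 0.63, 0.13 and 0.07, and the MYB gene (0.40). For these 5 the data do not show a further change, which is not the same as showing a plateau.

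**Figure D5:**
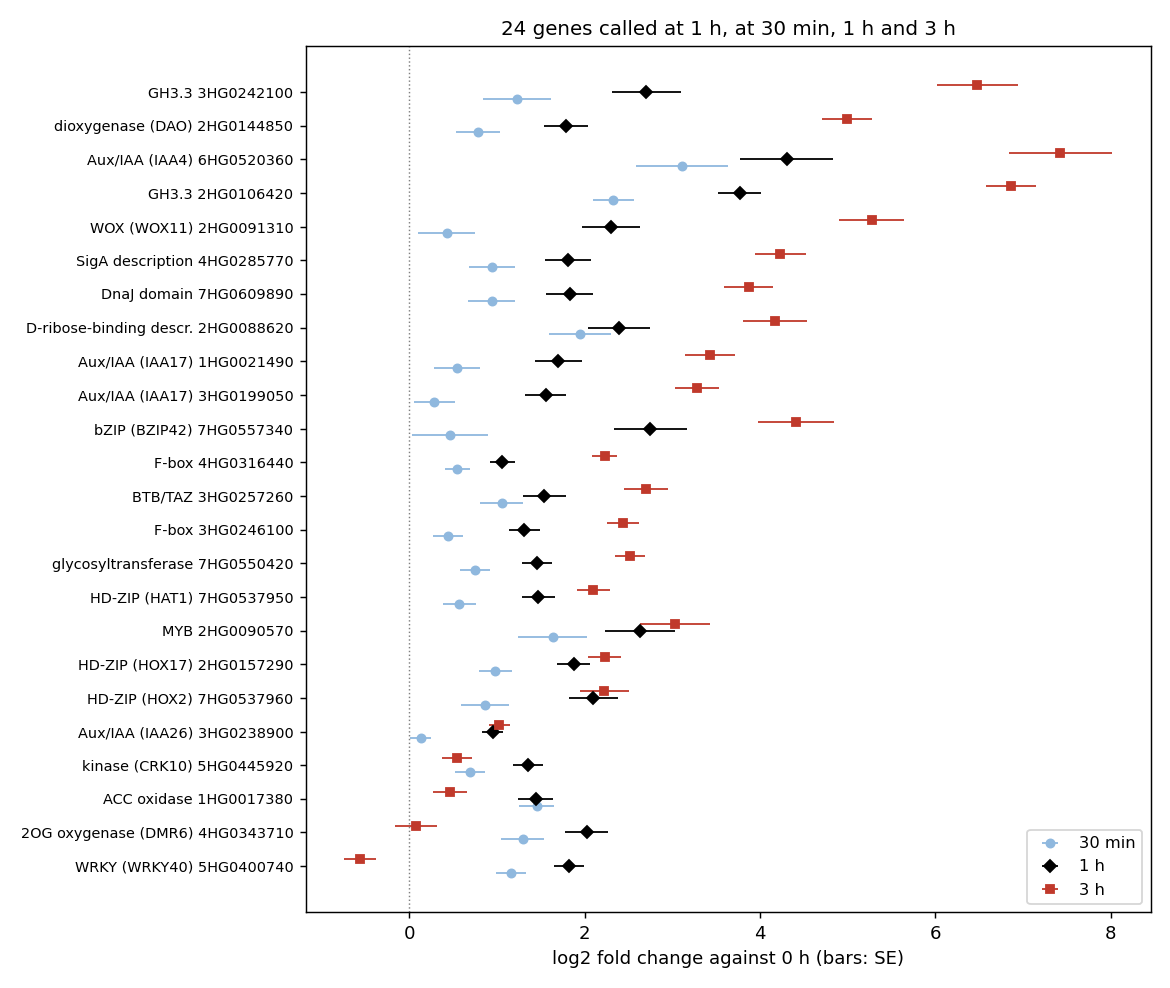
Log2 fold change against 0 h at 30 min, 1 h and 3 h for the 24 genes called at 1 h, with bars of 1 SE, ordered by the difference between 3 h and 1 h. The WRKY40-like gene is the only one of the 24 with a negative value at 3 h, and all 3 comparisons share the libraries of 0 h.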

How the data were processed

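RNA of crown pools was sequenced as poly(A)-selected, strand-marking libraries with paired reads, per the labels' protocols. Tools listed in the submitters' processing notes include HISAT2 2.0.5 and Subread 1.5.2. Which genome build, strand setting and treatment of reads with several matches were used was not given in the sources used here. The authors deposited raw counts per gene for 63658 genes, of which 26328 had no read in any library, and a table of log2 fold changes and adjusted p-values, which was used only for the values credited to it and for gene descriptions and homologs. No column was left unassigned.

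Counts of the 12 libraries were fitted in 1 model of the 4 times with edgeR 4.0.16 (R 4.3.3, limma 3.58.1): TMM scaling, filterByExpr (minimum count 10, minimum total 15), the quasi-likelihood test, 8 residual degrees of freedom and Benjamini-Hochberg adjustment over the 24920 genes tested. The standard error is the absolute log2 fold change divided by the square root of F. CPM values use the TMM-scaled library sizes. A count of 3 equals 0.0882 to 0.186 CPM, which covers counting error only. The procedure was tested on simulated data. DESeq2 1.42.0, other scalings, other filters, the replicate block, 6 libraries alone and leaving out each library were alternatives, and leaving out the replicate 3 libraries was added after seeing the data.

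The named genes are all called genes, those with the smallest p in each list if their mean was at least 1 CPM (2 in auxin, transcription factor and hormone lists), the 6 leading lower genes and the first homologs of the rice crown-root genes. Further family members, neighbours and heat shock genes were chosen after their values were seen. Members and gene lists were chosen with earlier results of these data known. Replicates were pools of crowns described as independent. The p-values set the difference between times against the spread between replicates, estimated over all 12 libraries. Without the replicate block that spread includes any difference between replicate numbers.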

Additional observations from a re-analysis of the deposited data

Results flagged for a closer look

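For 19 of the 24 genes called at 1 h, the level at 3 h differed from that at 1 h by edgeR's test of that difference (adjusted p under 0.05), given here as log2 fold changes of 3 h minus 1 h. Positive values of 3.78, 3.21, 3.12, 3.10 and 2.97 belonged to the GH3.3 gene 3HG0242100, the DAO-like gene 2HG0144850, the IAA4-like gene 6HG0520360, the GH3.3 gene 2HG0106420 and the WOX11-like gene 2HG0091310. The gene 4HG0285770 stood at 2.42, the DnaJ-domain gene 7HG0609890 at 2.04 and 2HG0088620 at 1.78. The IAA17-like genes 1HG0021490 and 3HG0199050 both stood at 1.73, and the bZIP gene 7HG0557340 at 1.66. The F-box genes 4HG0316440 and 3HG0246100 stood at 1.17 and 1.12, the BTB/TAZ gene 3HG0257260 at 1.16 and the glycosyltransferase gene 7HG0550420 at 1.06. Negative values were -2.38 for the WRKY40-like gene 5HG0400740, -1.95 for the DMR6-like gene 4HG0343710, -0.98 for the ACC oxidase gene 1HG0017380 and -0.81 for the kinase gene 5HG0445920.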

How the results depend on the processing

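The number of genes called at 1 h depended on the tool and the libraries, and the causes were not tested. Against 24 higher and 0 lower genes, DESeq2 gave 105 and 16, the replicate block 62 and 4, the 6 libraries of 0 h and 1 h alone 8 higher, these 6 with the replicate block 13 higher, and the libraries without replicate 3 gave 12 higher. Without the low-count filter 1 gene was lower. Leaving out 1 library gave 3 to 26 higher and 0 to 1 lower genes. The 24 genes kept their call under DESeq2, its size factors, the replicate block and both other filters, and 23 kept it under upper quartile scaling. For 1 h against 30 min DESeq2 called 15 higher and 8 lower, and leaving out 1 library gave 0 in both directions. For 3 h against 1 h, DESeq2 called 692 higher and 637 lower, the replicate block 819 and 873, and leaving out 1 library 135 to 313 and 85 to 219.

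The replicate numbers did not meet the rule for pairing: residuals of same-numbered libraries of 0 h and 1 h correlated at 0.216, 0.0958 and 0.508, and 1 of these is under 0.1. Over all 4 times, all 12 of the 12 libraries correlated best with their own number, which is a hint from the data and not the design. Between 0 h and 1 h alone this did not hold for replicate 2. Its 1 h library correlated at 0.164 with replicate 1 of 0 h, and its 0 h library at 0.137 with replicate 1 of 1 h. Of the named genes not called without it, the replicate block called 15, among them the CRL1-like gene 4HG0339920 (adjusted p = 0.00239), the WOX gene 4HG0315980 (0.0318), the ACC oxidase gene 1HG0017390 (0.039) and the SAUR gene 5HG0417400 (0.0481).

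Sign changes occurred only in uncalled genes near 0 among those named. 3HG0206810 stood at -0.0071 with DESeq2, -0.0070 with its size factors, -0.0238 with upper quartile scaling, -0.0027 with 6 libraries and -0.0010 with 6 and the replicate block. Leaving out 1 library gave -0.0696 to 0.0873 for 3HG0206810, -0.0597 to 0.103 for 4HG0278080 and -0.6959 to 0.1048 for 7HG0544360. Of the 50 list medians, 20 changed sign when some library was left out, and 13 moved by more than the spread between the 1 h libraries without replicate 3.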
